A study of Arabidopsis thaliana with 8 samples.

Results

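A set of 168 genes, of 33557 in the deposited tables, had at least 3 times the level in ABA-treated wild-type roots and kept within 1.5-fold of 1 in both mutant comparisons. The members were chosen by 3 ratios of the authors' group values, each with 0.1 FPKM added to both sides: Col+ABA over Col-ABA of at least 3, bin2-1 over Col-ABA within 1/1.5 to 1.5, and bzr1-D/bin2-1 over bin2-1 within the same band. At least 5 FPKM in any of the columns was also required. FPKM counts sequenced fragments per length of transcript and per size of library, so levels are per length. All of these ratios served to choose the members, and they are given as a description with no test.

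RNA came from about the last 1 cm of the roots of Arabidopsis thaliana seedlings grown for 7 days in the Columbia (Col) background, and was sequenced in 8 libraries in 4 groups of 2. The groups were Col treated with 100 µM ABA for 3 h (Col+ABA), bin2-1, the double mutant bzr1-D/bin2-1, and Col without ABA for the same 3 h (Col-ABA). The bin2-1 allele makes a hyperactive form of BIN2, a GSK3-like kinase that blocks brassinosteroid signalling, and the bzr1-D allele gives a stabilised BZR1, a transcription factor that BIN2 inhibits. The labels do not say whether the mutant roots received ABA or a 3 h treatment without it. Nor do they say whether the second library of each group, labelled a repeat, came from separately grown plants. Every column holds 1 value per group, so no replicate error stands beside any level, and library depth is unknown. The same group differs between tables by a near-constant factor, 0.938 for Col-ABA (ABA table over bin2-1 table) and 1.04 for bin2-1 (bzr1-D table over bin2-1 table). Ratios were therefore taken within a table, and where levels of all groups stand side by side, Col-ABA is from the ABA table and bin2-1 from the bin2-1 table.

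Abscisic acid (ABA) is the plant hormone of drought, salt and cold responses. It binds PYR/PYL receptors, which then block clade A protein phosphatases 2C (PP2Cs). This frees SnRK2 kinases to activate bZIP factors of the ABF/ABI5 type, which bind ACGTG-core promoter elements (ABREs) of target genes such as those of late embryogenesis abundant (LEA) proteins. In roots, ABA restrains growth and water loss, and brassinosteroids, through BIN2 and BZR1, largely promote growth.

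All 18 root marker genes, among them the endodermal CASP1, the root-hair gene EXPA7 and the quiescent-centre gene WOX5, had at least 1 FPKM in every group. Some of them differed between groups. EXPA7 had 14.8 FPKM in Col+ABA, 89.6 in bin2-1, 84.3 in bzr1-D/bin2-1 and 17.3 in Col-ABA. COBL9, another root-hair gene, had 11.4 in Col+ABA, 36.9 in bin2-1, 37.0 in bzr1-D/bin2-1 and 11.9 in Col-ABA. RHD6, also a root-hair gene, differed less, with 30.7 in Col+ABA, 44.7 in bin2-1, 32.1 in bzr1-D/bin2-1 and 29.2 in Col-ABA. WOX5 had 4.47 FPKM in Col+ABA, 10.7 in bin2-1, 4.06 in bzr1-D/bin2-1 and 1.82 in Col-ABA. SUC2, a phloem sucrose carrier, had 69.7 FPKM in Col+ABA, 33.2 in bin2-1, 48.5 in bzr1-D/bin2-1 and 33.9 in Col-ABA. APL, the other phloem gene, went the other way with ABA. It had 11.6 FPKM in Col+ABA, 12.2 in bin2-1, 10.5 in bzr1-D/bin2-1 and 16.3 in Col-ABA. The 18 together summed to 594 FPKM in Col+ABA, 530 in bin2-1, 702 in bzr1-D/bin2-1 and 505 in Col-ABA, and their part in the members' levels was not tested. The 4 green-tissue genes reached at most 5.22 FPKM. Of 6 embryo and seed genes, 2 had at least 1 FPKM with ABA, led by EM6, a LEA gene, at 87.2 FPKM with ABA and 0.828 without. Their summed level was 97.2 FPKM in Col+ABA, 1.97 in bin2-1, 0.404 in bzr1-D/bin2-1 and 1.30 in Col-ABA, with the defining seed storage gene CRA1 listed at 0 in every group. Whether that sum has a part in the members' levels was not tested. In these bulk samples, fewer cells of a type and less RNA per cell cannot be told apart.

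The promoters of 9 genes, chosen with earlier results of these data known, are shown because the ABRE core is the element that ABA-responsive bZIP factors bind. Each is the 250 bases before the annotated gene start in RefSeq TAIR10.1, on the gene's strand, and overlaps no annotated gene. Capitals mark ACGTG on either strand (printed as CACGT where it lies on the other strand, and as CACGTG where both overlap). In COR15A and COR413-PM1 they also mark CCGAC, the core bound by CBF/DREB cold factors, or its reverse complement GTCGG. RD26 and PUB19 also hold 1 such match each, left in lower case. KIN2 is not a member and is printed beside its near-identical neighbour KIN1.
MYB41, chr4:13969526-13969775 (minus strand): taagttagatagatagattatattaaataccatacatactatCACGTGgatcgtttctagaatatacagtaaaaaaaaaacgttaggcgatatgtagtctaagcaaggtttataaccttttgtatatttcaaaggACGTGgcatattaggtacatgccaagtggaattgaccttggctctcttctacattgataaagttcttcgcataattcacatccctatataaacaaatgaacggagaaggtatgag
RD26, chr4:13709171-13709420 (minus strand): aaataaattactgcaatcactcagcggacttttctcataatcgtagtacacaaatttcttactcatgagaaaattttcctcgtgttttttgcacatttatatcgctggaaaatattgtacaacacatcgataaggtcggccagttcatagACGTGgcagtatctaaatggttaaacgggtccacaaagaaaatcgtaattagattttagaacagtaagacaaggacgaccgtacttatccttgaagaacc
PUB19, chr1:22198016-22198265 (plus strand): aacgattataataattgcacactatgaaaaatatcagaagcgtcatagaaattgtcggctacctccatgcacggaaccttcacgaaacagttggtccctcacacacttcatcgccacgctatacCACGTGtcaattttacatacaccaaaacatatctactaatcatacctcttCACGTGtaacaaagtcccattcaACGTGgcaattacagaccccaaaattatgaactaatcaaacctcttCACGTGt
ABF3, chr4:16295084-16295333 (plus strand): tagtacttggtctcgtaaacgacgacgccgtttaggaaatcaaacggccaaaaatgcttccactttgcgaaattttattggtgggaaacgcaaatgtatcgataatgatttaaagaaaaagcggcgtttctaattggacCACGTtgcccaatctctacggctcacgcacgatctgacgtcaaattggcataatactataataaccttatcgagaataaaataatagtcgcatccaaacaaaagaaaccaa
HAB1, chr1:27389698-27389947 (plus strand): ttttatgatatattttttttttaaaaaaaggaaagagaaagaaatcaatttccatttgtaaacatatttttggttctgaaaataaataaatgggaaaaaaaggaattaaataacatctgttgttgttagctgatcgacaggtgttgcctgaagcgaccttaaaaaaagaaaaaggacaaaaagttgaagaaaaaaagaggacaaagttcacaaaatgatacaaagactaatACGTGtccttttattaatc
COR15A, chr2:17712331-17712580 (minus strand): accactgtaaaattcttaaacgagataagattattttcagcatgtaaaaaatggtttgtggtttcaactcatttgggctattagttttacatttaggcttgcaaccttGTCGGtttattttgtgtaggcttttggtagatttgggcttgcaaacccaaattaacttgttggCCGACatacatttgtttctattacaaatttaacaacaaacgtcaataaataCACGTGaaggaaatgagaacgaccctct
COR413-PM1, chr2:6949601-6949850 (plus strand): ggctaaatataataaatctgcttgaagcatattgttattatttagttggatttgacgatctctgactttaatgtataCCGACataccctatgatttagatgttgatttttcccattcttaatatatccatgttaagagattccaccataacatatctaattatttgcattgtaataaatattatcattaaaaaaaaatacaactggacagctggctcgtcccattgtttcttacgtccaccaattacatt
KIN1, chr5:5209467-5209716 (plus strand): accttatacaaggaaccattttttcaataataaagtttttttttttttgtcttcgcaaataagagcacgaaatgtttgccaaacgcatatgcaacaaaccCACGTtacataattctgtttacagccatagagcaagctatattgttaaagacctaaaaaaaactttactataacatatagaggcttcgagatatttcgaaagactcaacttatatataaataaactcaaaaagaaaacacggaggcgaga
KIN2, chr5:5211469-5211718 (plus strand): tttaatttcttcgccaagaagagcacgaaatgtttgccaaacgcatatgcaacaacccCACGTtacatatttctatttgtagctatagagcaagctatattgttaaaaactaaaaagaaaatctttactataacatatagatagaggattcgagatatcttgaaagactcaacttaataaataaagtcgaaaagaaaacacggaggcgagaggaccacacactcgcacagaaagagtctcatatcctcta
PUB19 carried 4 separate ACGTG sites, the nearest at the edge of the gene start, and MYB41 carried 2. RD26, ABF3, HAB1, COR15A, KIN1 and KIN2 carried 1 each. COR413-PM1, the member with the highest level under ABA, had 0 ACGTG sites and 1 CCGAC match. In the whole module 76 of 160 promoters (47.5%) held ACGTG, so the shown promoters do not represent it.

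The members ranged widely in level, and the rule itself kept each of them at similar levels in the 3 groups not labelled +ABA. Their median was 48.3 FPKM in Col+ABA, 7.52 in bin2-1, 8.29 in bzr1-D/bin2-1 and 7.07 in Col-ABA. The median log2 ABA ratio was 2.41, beside 0.02 over all 15705 genes with at least 5 FPKM. That gap also follows from the rule, which required an ABA ratio of at least 3. Of the members, 55 had an ABA ratio of at least 8 and 62 one between 3 and 4. At q under 0.05, 156 of the 168 (92.9%) were higher with ABA in the authors' deposited table and 0 were lower. Over all genes tested, 15.1% were higher and 9.51% lower at that threshold, but the rule used this contrast and the share of members is a description.

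The members fall into a large group with a basal level and a small one that was near silent in the columns not labelled +ABA. In the first, 144 genes had at least 1 FPKM in some column not labelled +ABA, and their median ABA ratio was 4.42. All 144 were past q 0.05 in the authors' deposited ABA table. The other 24 were under 1 FPKM in every column not labelled +ABA, had a median ratio of 72.7, and 12 of them were past q 0.05 in the authors' deposited table. Over all genes tested 15.1% were higher with ABA, and the rule used this contrast. For 8 of these 24 every column not labelled +ABA was listed at 0, so their mutant ratios of exactly 1 come from the added 0.1 FPKM alone. For others with levels under 0.1 FPKM, such as COR15A, that addition draws the mutant ratios toward 1. Whether such genes moved in the mutants cannot be judged. AT1G04560 was the clearest of the 8, at 64.6 FPKM in Col+ABA and 0 elsewhere (q = 0.000385 in the authors' deposited table). It encodes an AWPM-19-like protein of a family found in plasma membranes. COR15A, a chloroplast-protecting cold-response protein, had 50.9 FPKM in Col+ABA, 0.0512 in bin2-1, 0.0511 in bzr1-D/bin2-1 and 0.0373 in Col-ABA, and yet q was 0.475 in the authors' deposited ABA table. ATCG00080 and ATCG00550, which have no RefSeq entry under these identifiers here, had 163.7 and 21.1 FPKM with ABA and 0 in all other columns, with q of 0.0643 and 1 in the authors' deposited table.

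**Figure D1:**
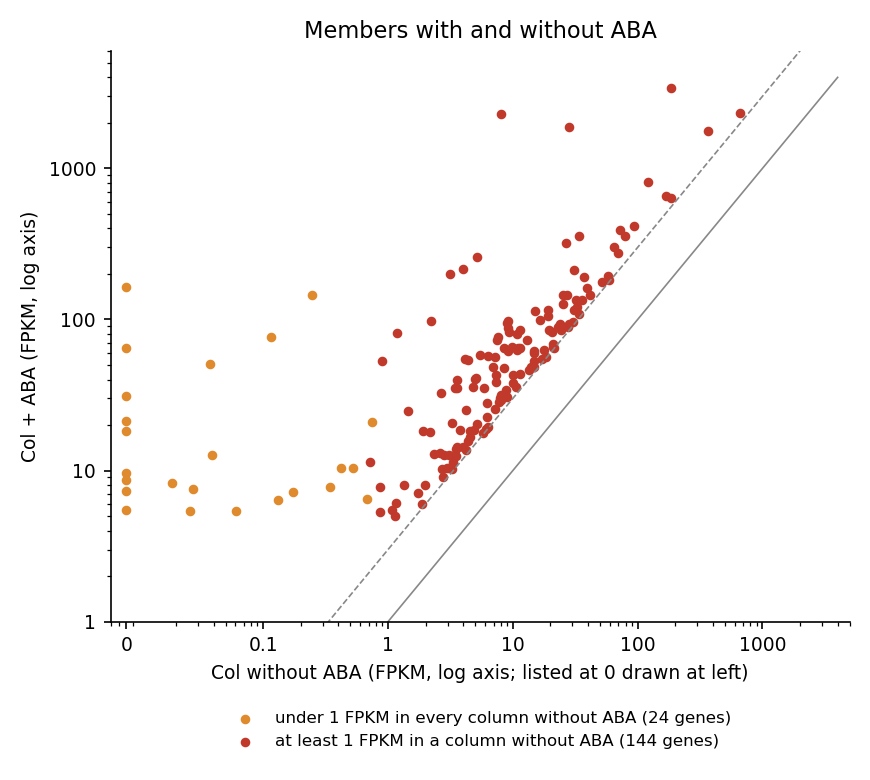
Level of each of the 168 members in Col+ABA (vertical) against Col-ABA (horizontal), in FPKM on log axes, with genes listed at 0 drawn at the left edge; the solid line marks equal levels and the dashed line a ratio of 3. The 24 genes under 1 FPKM in every column not labelled +ABA (in the legend, without ABA) lie to the left, between 5.38 and 163.7 FPKM with ABA. The other 144 lie on or above the dashed line, between 5.01 and 3381 FPKM with ABA.

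Near the thresholds the members do not stand apart from their neighbours. COR314-TM2, RPK1 and NAC13 lay just inside an ABA ratio of 3, at 3.01, 3.02 and 3.03, and PSK3, AT5G52552 and HHP3 just under it, at 2.97, 2.96 and 2.96. At the upper edge of the bin2-1 band, AT1G54500 and DOX1 were inside at 1.497 and 1.482, and RHA1A and SIP1 outside at 1.502 and 1.503. AT5G49900 and MIPS2 were inside the lower edge at 0.678 and 0.679, and RVE8 and SKP2A outside it at 0.658 and 0.657. The bzr1-D band held AT5G60580 at 1.484 and AT2G38465 at 0.671, and left out AT3G22620 at 1.513 and AT5G62150 at 0.666. BBX30 at 5.01 FPKM and AT5G04010 at 4.87 FPKM lay on either side of the level minimum.

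Being within 1.5-fold in the mutants is common: 60.2% of genes with at least 5 FPKM met the band in bin2-1 and 81.5% in bzr1-D/bin2-1. An ABA ratio of at least 3 was rare, at 4.53% of those genes, or 711. The 168 members were 23.6% of the 711. Of the rest, 276 were above the band in bin2-1, 167 were below it, and the others left the band only in bzr1-D/bin2-1 against bin2-1, 50 above it and 50 below.

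"Unmoved" here is a statement about ratios and not about the authors' tests. For 19 members neither mutant table held a p-value below 1, so they count as not tested there. In the authors' deposited bin2-1 table, 15 members were higher and 19 lower at q under 0.05, beside 25.4% and 25.6% of all genes tested. In the authors' deposited bzr1-D table, 12 members were higher and 5 lower, beside 11.9% and 12.8% of all genes tested. Nothing is read from these counts, since the rule used both contrasts. Together 45 members were past the threshold in at least 1 mutant table and 6 in both, namely ABF3, AT3G22600, RAP2.10, DOX1, AT5G60580 and AGP1. Those past the threshold with the highest levels under ABA were AT2G23120, KIN1, RCI2B, AT3G22600 and AGP1. AT3G22600, a lipid-transfer-like protein, had a bin2-1 ratio of 1.30 and a bzr1-D ratio of 1.47, and the product of the 2, bzr1-D/bin2-1 over Col-ABA, was 1.92. When the 2 mutant ratios were multiplied, 140 members stayed within 1.5-fold of Col-ABA in bzr1-D/bin2-1, 20 were above and 8 below.

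At the core of the ABA pathway the members held 1 receptor, 2 PP2Cs, 1 bZIP factor and 1 exporter. PYL7, a receptor, had 13 FPKM in Col+ABA, 2.54 in bin2-1, 2.43 in bzr1-D/bin2-1 and 2.597 in Col-ABA. It was the only ABA-raised gene of the 14 listed receptors. At q under 0.05 in the authors' deposited table, 2 of the 10 receptors tested were higher and 7 lower with ABA, beside 15.1% and 9.51% of all genes tested, and PYL7 was 1 of the 2.

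HAB1 and HAB2, PP2Cs that hold SnRK2 kinases inactive, were the members among 8 ABA-raised genes of the 9 clade A phosphatases. HAB1 had 87.7 FPKM in Col+ABA, 11.4 in bin2-1, 11.5 in bzr1-D/bin2-1 and 9.23 in Col-ABA, an ABA ratio of 9.41 with mutant ratios of 1.16 and 0.962. HAB2 had 37.8 FPKM in Col+ABA, 14.9 in bin2-1, 16.3 in bzr1-D/bin2-1 and 10.06 in Col-ABA. Its bin2-1 ratio of 1.38 was inside the band, though q was 0.00526 in the authors' deposited bin2-1 table. The other ABA-raised phosphatases were outside the band: ABI1, ABI2, HAI1 and HAI2 were above it in bin2-1, at ratios of 3.16, 2.19, 1.65 and 1.87, HAI3 was below it at 0.609, and PP2CA was above it only in the bzr1-D comparison, at 1.52. PP2CA, with a bin2-1 ratio of 1.205, therefore lay just outside the module.

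ABF3, a bZIP factor that binds ABREs, had 322 FPKM in Col+ABA, 22.6 in bin2-1, 32.9 in bzr1-D/bin2-1 and 26.9 in Col-ABA. Its bin2-1 ratio was 0.791 (q = 0.0384 in the authors' deposited table) and its bzr1-D ratio 1.39 (q = 0.00257 in the authors' deposited table), so it was the only one of these 5 past the threshold in both mutant tables. ABI5, the related factor named in the title of the series, was outside the module, with 8.94 FPKM in Col+ABA and 0.937 in Col-ABA and mutant ratios of 3.02 and 0.389. BIN2 and BZR1 had ABA ratios of 0.975 and 0.986, bin2-1 ratios of 0.646 and 0.477 (both q = 0.000188 in the authors' deposited table) and bzr1-D ratios of 1.06 and 0.758 (q = 0.0247 for BZR1 in the authors' deposited table). ABCG25, which exports ABA from cells, had 59.9 FPKM in Col+ABA, 14.7 in bin2-1, 17.0 in bzr1-D/bin2-1 and 14.6 in Col-ABA. None of the 3 ABA-raised genes of ABA synthesis and breakdown, ABA1, NCED3 and CYP707A1, was a member, and all 3 were above the band in bin2-1.

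**Figure D2:**
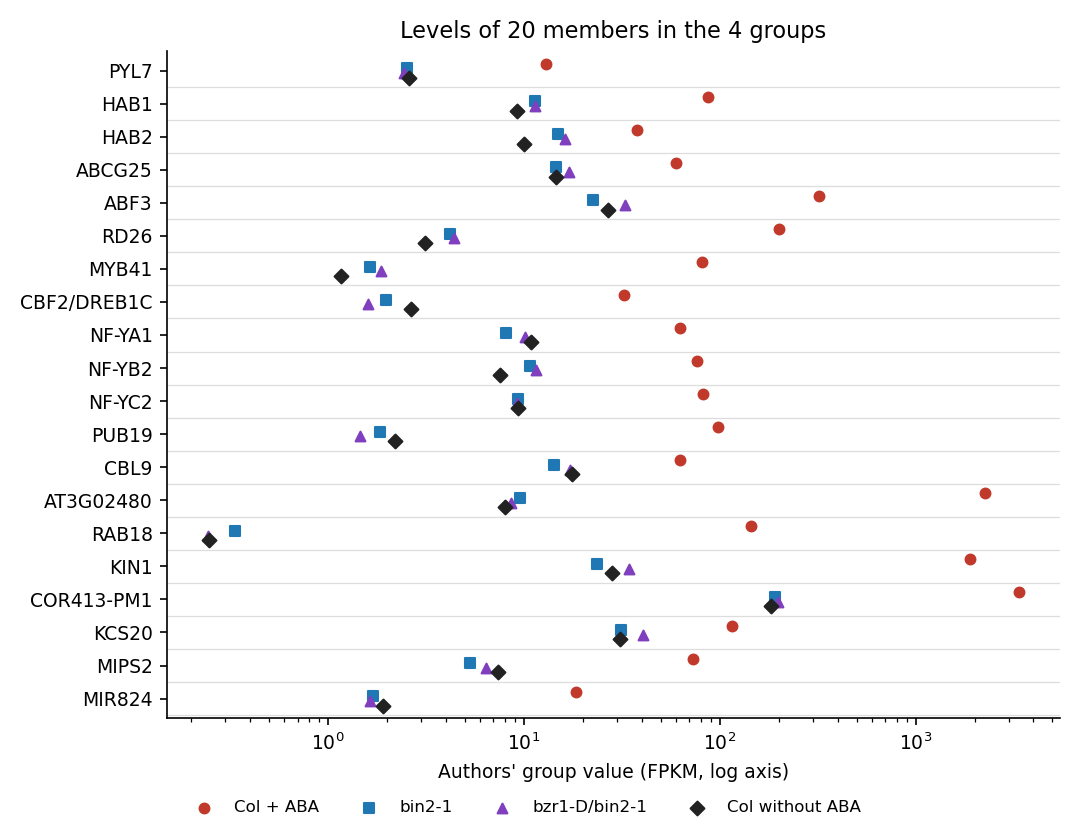
Group values of 20 members in FPKM on a log axis, with Col+ABA as circles, bin2-1 as squares, bzr1-D/bin2-1 as triangles and Col-ABA as diamonds; Col-ABA is from the ABA table and bin2-1 from the bin2-1 table. In every row the Col+ABA circle stands to the right of the other 3 groups, from 13 FPKM for PYL7 to 3381 FPKM for COR413-PM1.

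The proteins that protect cells in drying and cold supplied the highest levels. COR413-PM1, a cold-regulated plasma-membrane protein, had 3381 FPKM in Col+ABA, 192 in bin2-1, 197 in bzr1-D/bin2-1 and 184 in Col-ABA. Its mutant ratios of 0.981 and 0.986 were the closest to 1 among members with at least 1 FPKM in a column not labelled +ABA and an ABA ratio of at least 8. AT3G02480, a LEA family protein, had 2272 FPKM in Col+ABA, 9.61 in bin2-1, 8.65 in bzr1-D/bin2-1 and 7.99 in Col-ABA. That is an ABA ratio of 281, the largest among members with a basal level. The dehydrin RAB18 had 145 FPKM in Col+ABA, 0.337 in bin2-1, 0.244 in bzr1-D/bin2-1 and 0.246 in Col-ABA, where its ratio of 419 depends on the added 0.1 FPKM. AT2G23120, a group 6 LEA protein, and RCI2B, a small membrane protein of salt and cold responses, started high and had lower ratios, with 2320 FPKM in Col+ABA and 659 in Col-ABA for AT2G23120. RCI2B had 1779 FPKM in Col+ABA and 367 in Col-ABA.

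KIN1 and KIN2, neighbouring genes for near-identical cold-induced proteins, fell on different sides of the rule. KIN1 had 1891 FPKM in Col+ABA, 23.7 in bin2-1, 34.6 in bzr1-D/bin2-1 and 28.2 in Col-ABA. KIN2 had 5316 FPKM in Col+ABA, 819 in bin2-1, 706 in bzr1-D/bin2-1 and 446 in Col-ABA, and its bin2-1 ratio was 1.72 where that of KIN1 was 0.790. Reads may be shared between such close copies, so the split is uncertain. Of the 22 ABA-raised genes in the list of LEA, dehydrin and RD, KIN and COR genes, 4 were members (RAB18, KIN1, COR15A and CLO3, also called RD20, a caleosin of lipid droplets), 6 were above the band in bin2-1, 11 below it, and 1 left it with bzr1-D. RD29A, COR47 and LEA7, all below the band, had bin2-1 ratios of 0.479, 0.366 and 0.179. CLO3 had 12.7 FPKM in Col+ABA and 0.0386 in Col-ABA, with q of 0.446 in the authors' deposited ABA table.

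By roles assigned by hand, with 71 members given none, 31 members were transcription factors. Of these, 29 were past q 0.05 in the authors' deposited ABA table, beside 156 of all 168 members and 15.1% of all genes tested higher with ABA. The median level of the 31 was 39.9 FPKM in Col+ABA, 4.41 in bin2-1, 3.51 in bzr1-D/bin2-1 and 3.57 in Col-ABA. In the list of stress MYBs, chosen with earlier results of these data known, 5 of 7 ABA-raised genes were members, beside 23.6% of all ABA-raised genes. ABA-raised MYB genes that were no members included MYB3, MYB43, MYB74 and MYB112, above the band in bin2-1. MYB84 and MYB305 were below it, and MYB49 and MYB67 were above it only in the bzr1-D comparison. MYB41, an activator of suberin genes, had 81.3 FPKM in Col+ABA, 1.63 in bin2-1, 1.86 in bzr1-D/bin2-1 and 1.17 in Col-ABA. MYB9, MYB39 and MYB53, which also regulate suberin, had lower ABA ratios of 3.77, 3.26 and 3.36. MYB53 overlaps another annotated gene on its own strand, so its value is uncertain. MYB102 had 5.38 FPKM in Col+ABA and 0.0607 in Col-ABA, with q of 0.194 for ABA in the authors' deposited table. Of 9 ABA-raised genes in the suberin and wax list, 7 were above the band in bin2-1, among them ASFT at 5.87 and GPAT7 at 5.96, and 1 was a member. That member, KCS20, which elongates very-long-chain fatty acids, had 115 FPKM in Col+ABA, 31.5 in bin2-1, 40.5 in bzr1-D/bin2-1 and 31.1 in Col-ABA.

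RD26, a NAC factor of dehydration responses, had 201 FPKM in Col+ABA, 4.18 in bin2-1, 4.40 in bzr1-D/bin2-1 and 3.13 in Col-ABA, an ABA ratio of 62.4 with mutant ratios of 1.248 and 1.01. The related NAC019 and NAC055 were outside the band in bin2-1 in opposite directions, at 2.16 and 0.459. NAC089 and NAC6 (also called ORE1, a promoter of leaf senescence) were members at ABA ratios of 7.43 and 3.84. NAC089 had a bzr1-D ratio of 0.687 and a q of 0.0125 in the authors' deposited bzr1-D table. NAC060 and NAC080, outside the list, had ratios of 8.20 and 14.1.

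Of the trimeric CCAAT-binding factor NF-Y, a subunit of each of the 3 kinds was a member. NF-YA1 had 62.4 FPKM in Col+ABA, 8.12 in bin2-1, 10.13 in bzr1-D/bin2-1 and 10.9 in Col-ABA. NF-YB2 had 76.2 FPKM in Col+ABA, 10.7 in bin2-1, 11.6 in bzr1-D/bin2-1 and 7.60 in Col-ABA. NF-YC2 had 82.5 FPKM in Col+ABA, 9.36 in bin2-1, 9.23 in bzr1-D/bin2-1 and 9.35 in Col-ABA. Their levels under ABA lay within 62.4 to 82.5 FPKM, and their bin2-1 ratios were 0.702, 1.32 and 0.939. NF-YA1 was lower in bin2-1 at q = 0.00561 in the authors' deposited table. NF-YA5 was also ABA-raised, at a ratio of 11.3, but was above the band in bin2-1 at 2.597 and was no member.

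The AP2/ERF list held 3 members among 10 ABA-raised genes, DREB1C, ERF8 and RAP2.10. ICE1, a bHLH activator of CBF genes, had 10.3 FPKM in Col+ABA, 3.76 in bin2-1, 3.31 in bzr1-D/bin2-1 and 2.98 in Col-ABA. DREB1C (CBF2), which binds CCGAC, had 32.5 FPKM in Col+ABA, 1.97 in bin2-1, 1.61 in bzr1-D/bin2-1 and 2.66 in Col-ABA. The other 3 CBF genes were also ABA-raised but no members. DREB1A (CBF3) and DREB1B (CBF1) had bin2-1 ratios of 1.75 and 3.40, and DREB1D (CBF4) had a bzr1-D ratio of 1.74. COR15A, whose promoter printed above holds CCGAC in both orientations, is a known target of CBF factors. Other factors with large ABA ratios were the homeodomain proteins HB40 (16.6), HB17 (10.9) and KNAT3 (8.05), the bHLH protein AT4G29930 (12.1) and MYB121 (60.1, from 7.55 FPKM in Col+ABA and 0.0272 in Col-ABA, q = 0.468 in the authors' deposited table). ERF8, RAP2.10, WRKY57, HSFC1 and HSFA1E completed the listed factors, at 7.55, 4.29, 4.14, 3.67 and 3.47.

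Regulators of protein turnover and phosphorylation were fewer. PUB19, a U-box ubiquitin ligase that dampens ABA responses, had 97.9 FPKM in Col+ABA, 1.85 in bin2-1, 1.46 in bzr1-D/bin2-1 and 2.202 in Col-ABA. AIRP1, a RING ligase that promotes ABA responses, had 40.3 FPKM in Col+ABA, 4.82 in bin2-1, 5.08 in bzr1-D/bin2-1 and 4.99 in Col-ABA. These were 2 of the 3 ABA-raised genes among 21 listed turnover genes. SKP2B, an F-box protein, had an ABA ratio of 6.86.

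The 7 kinases, phosphatases and calcium sensors had ABA ratios from 3.02 to 7.41, with none at 8 or above. The calcium sensor CBL9 had 62.4 FPKM in Col+ABA, 14.3 in bin2-1, 17.2 in bzr1-D/bin2-1 and 17.6 in Col-ABA. CIPK12, a kinase of the CBL-interacting family, had an ABA ratio of 3.46, and RPK1, a receptor-like kinase that promotes ABA responses, one of 3.02. CIPK11 had 12.6 FPKM in Col+ABA and 2.83 in Col-ABA, and AT2G30362, a noncoding RNA on the opposite strand over it, had 135 in Col+ABA and 32.1 in Col-ABA. No source used here states whether strand was used in counting, so the reads of this overlapping pair cannot be told apart. In all, 50 members overlap an annotated gene, 6 of them on the same strand.

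Among 11 transporters and channels, the largest ABA ratio was that of BAC2, a mitochondrial carrier of basic amino acids, which had 10.4 FPKM in Col+ABA, 0.672 in bin2-1, 0.829 in bzr1-D/bin2-1 and 0.419 in Col-ABA. G3Pp4, a membrane carrier of the major facilitator superfamily, had a ratio of 9.69, and ZF14, a MATE efflux protein, 5.32. PIP1;4, a water channel of the plasma membrane, had 144 FPKM in Col+ABA, 37.5 in bin2-1, 46.6 in bzr1-D/bin2-1 and 27.2 in Col-ABA. It was the only ABA-raised gene of 24 listed aquaporins. Of those 24, 10 were higher and 4 lower with ABA at q under 0.05 in the authors' deposited table, beside 15.1% and 9.51% of all genes tested. In bin2-1, 6 were higher and 16 lower in the authors' deposited table, beside 25.4% and 25.6% of all genes tested, and PIP1;4 had a ratio of 1.29 (q = 0.0264). With bzr1-D, 15 were higher and 2 lower in the authors' deposited table, beside 11.9% and 12.8% of all genes tested.

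Enzymes were spread over many pathways. AT1G48100, a pectin lyase-like protein, had an ABA ratio of 26.8, and MES5, a methyl esterase, one of 10.4. AOX2, an alternative oxidase of the respiratory chain, had 6.35 FPKM in Col+ABA and 0.132 in Col-ABA. TPPE, a trehalose-phosphate phosphatase, had 7.80 FPKM in Col+ABA, 0.557 in bin2-1, 0.520 in bzr1-D/bin2-1 and 0.342 in Col-ABA. MIPS2, an enzyme of inositol synthesis, had 72.9 FPKM in Col+ABA, 5.33 in bin2-1, 6.40 in bzr1-D/bin2-1 and 7.41 in Col-ABA. AOX2 and TPPE thus had low levels even with ABA, unlike UGE2, a UDP-glucose epimerase with 57.4 FPKM in Col+ABA and 6.30 in Col-ABA, and BAM1, a starch-degrading beta-amylase with 120 FPKM in Col+ABA and 32.7 in Col-ABA.

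Plastid proteins were members in these non-green roots. NYC1, a chlorophyll b reductase, had 35.3 FPKM in Col+ABA, 3.94 in bin2-1, 4.29 in bzr1-D/bin2-1 and 3.46 in Col-ABA, and CH1, which makes chlorophyll b, had 7.98 in Col+ABA and 1.35 in Col-ABA. HDR, the last enzyme of the plastid isoprenoid pathway, had 182 FPKM in Col+ABA, 46.7 in bin2-1, 55.8 in bzr1-D/bin2-1 and 59.5 in Col-ABA. The 4 green-tissue markers summed to 5.04 FPKM in Col+ABA, 8.92 in bin2-1, 9.64 in bzr1-D/bin2-1 and 5.10 in Col-ABA. In Col, the sum of these 4 was thus similar with and without ABA. Other photosynthesis genes were ABA-raised, among them the member FED A, at a log2 ABA ratio of 1.79. LHB1B2 and PSBO2, at 1.70 and 2.68, were also raised but were no members. Among detoxifying enzymes, the glutathione transferase GSTU9 had 301 FPKM in Col+ABA and 65.1 in Col-ABA, and GSTU18 had 18.1 in Col+ABA and 2.16 in Col-ABA. DOX1, a fatty-acid dioxygenase, had 275 FPKM in Col+ABA, 111 in bin2-1, 87.4 in bzr1-D/bin2-1 and 70.1 in Col-ABA.

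One member makes a small RNA. The precursor gene MIR824 had 18.4 FPKM in Col+ABA, 1.700 in bin2-1, 1.65 in bzr1-D/bin2-1 and 1.90 in Col-ABA. RefSeq annotates a mature product from each arm, with no shared seed, printed with the seed (bases 2 to 8) in capitals.
ath-miR824-5p, chr4:12625128-12625148 (plus strand): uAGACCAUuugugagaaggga
ath-miR824-3p, chr4:12625721-12625741 (plus strand): cCUUCUCAucgauggucuaga
AGL16, a MADS-box gene known as a target of miR824, had 28.7 FPKM in Col+ABA, 24.8 in bin2-1, 29.1 in bzr1-D/bin2-1 and 25.9 in Col-ABA (for ABA, q = 0.607 in the authors' deposited table). The tables hold long RNA, and mature miR824 was not analysed here.

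In the gene lists, 34 of the 168 members had a place and 134 did not, and 113 list genes in all were ABA-raised. Members were found in 17 of the 24 lists. The lists of brassinosteroid synthesis and signalling, of branched-chain amino acid breakdown, of beta-oxidation, of antioxidants and of reference genes held 0 ABA-raised genes. Outside the lists, a pair of neighbouring members, AT4G25670 and AT4G25690, carried the same annotated product, a stress response NST1-like protein. AT4G25670 had 190 FPKM in Col+ABA and 37.4 in Col-ABA, and AT4G25690 had 134 in Col+ABA and 36.1 in Col-ABA, and such close copies may share reads.

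**Figure D3:**
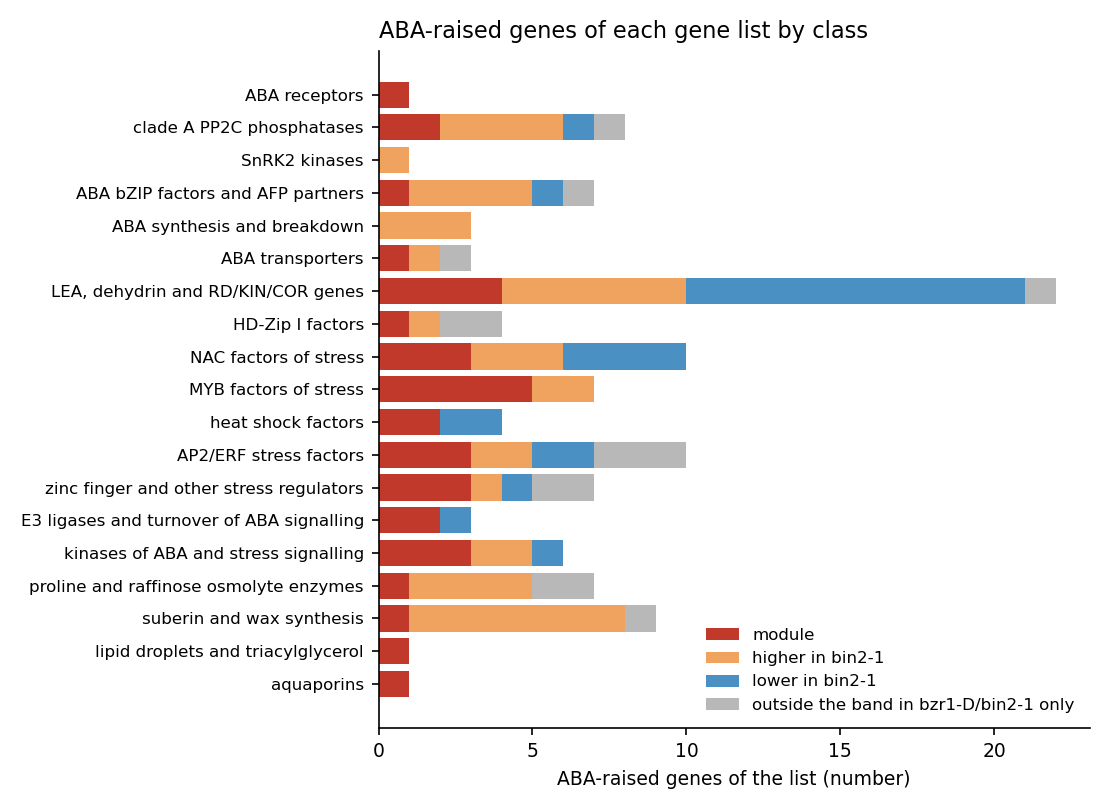
Number of ABA-raised genes (ratio of at least 3, at least 5 FPKM) in each gene list that held any, split by whether they were members, above or below the 1.5-fold band in bin2-1, or outside it in bzr1-D/bin2-1 only. Members make 5 of 7 among the listed stress MYB factors and 4 of 22 among the LEA, dehydrin and RD, KIN and COR genes, and 1 of 9 among the suberin and wax genes. Over all ABA-raised genes, 23.6% were members. The lists were chosen with earlier results of these data known, so the shares describe the lists and not whole gene families.

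Promoter sequence did not enter the rule and was compared over protein-coding genes, 160 module promoters beside 528 of other ABA-raised genes and 15340 of genes with at least 5 FPKM. Motifs were searched on both strands and overlapping matches of a motif were merged into 1 site. A match is a description of the letters, and no test of the shares was made. ACGTG, the ABRE core, was in 47.5% of module promoters, 43.6% of the other ABA-raised, 24.6% of genes with at least 5 FPKM and 23.1% of 26681 protein-coding genes. At least 2 separate sites were in 22.5%, 19.1%, 5.88% and 5.06% of the same sets. The module thus held the core about as often as other ABA-raised genes and more often than genes at large.

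The palindrome CACGTG, the G-box, which contains the ABRE core, was in 30.6% of module promoters, 19.7% of the other ABA-raised and 7.78% of genes with at least 5 FPKM. Of the other ABA-raised genes, it was in 23.8% of those below the band in bin2-1 and 16.4% of those above it. For those above and below the band only in the bzr1-D comparison, the G-box shares were 17.0% and 26.5%. The longer ABRE forms ACGTGTC and ACGTGGC were in 17.5% and 13.1% of module promoters, in 15.3% and 10.04% of other ABA-raised promoters, and in 4.44% and 4.01% of genes with at least 5 FPKM. CCGAC was in 15.6%, 18.8% and 13.3%. CGTGTG, a form of the element BZR1 binds (BRRE), was in 8.13% of module promoters, 12.5% of the other ABA-raised and 5.73% of genes with at least 5 FPKM, and the form CGTGCG in 3.75%, 1.52% and 1.85%. Of the other ABA-raised genes, CGTGTG was in 18.3% of those below the band in bin2-1 and 9.70% of those above it. For those above and below the band only in the bzr1-D comparison, the CGTGTG shares were 10.6% and 10.2%. The W-box (TTGACC or TTGACT), at 28.8%, 26.7% and 28.2%, and the heat-shock unit GAANNTTC, at 7.50%, 11.9% and 9.21%, gave other orders of the 3 sets. The E-box CANNTG, which includes the G-box, was in 71.3%, 66.5% and 56.4%, and the evening element AAATATCT in 6.88%, 5.30% and 4.98%.

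**Figure D4:**
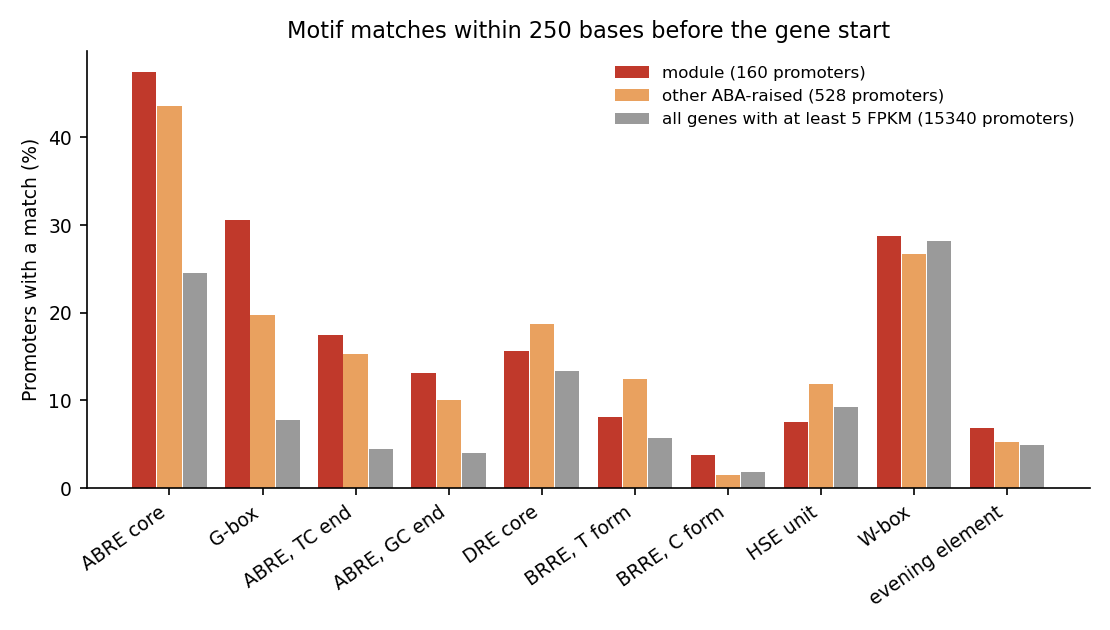
Share of promoters (250 bases before the gene start) with at least 1 match on either strand, for 10 motifs, in the module, the other ABA-raised genes and all genes with at least 5 FPKM; BRRE is the element BZR1 binds, HSE the heat-shock element and DRE the element of CBF/DREB factors. The ABRE core and G-box bars of the module, 47.5% and 30.6%, stand above those of all genes with at least 5 FPKM, 24.6% and 7.78%, and the W-box bars are level.

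Within the module the ABRE core went with the size of the ABA ratio. It was in 68.0% of the 50 promoters of members with a ratio of at least 8, in 43.8% of the 48 between 4 and 8, and in 33.9% of the 62 between 3 and 4. The members under 1 FPKM in every column not labelled +ABA held it in 14 of 20 promoters, beside 44.3% of the other 140. These 20 all belong to the 50 with a ratio of at least 8, so they are no separate observation. The most sites were 5, before AT5G50360, which encodes a von Willebrand factor A domain protein and had 76.4 FPKM in Col+ABA and 0.116 in Col-ABA (q = 0.0538 in the authors' deposited table). PYL7 and HAB2 held 2 sites each, ABCG25, NF-YB2 and RAB18 held 3, and the 84 members without a site included NF-YC2, AIRP1, KCS20, MYB9 and MYB39.

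The sites lay near the start. Counted by their centres in bins of 25 bases, they were densest 51 to 75 bases before the start, at 15 per 100 module promoters, 10.4 per 100 other ABA-raised promoters and 4.602 per 100 promoters of genes with at least 5 FPKM. In the farthest bin, 226 to 250 bases, these were 4.38, 4.73 and 2.28. The module lay above the other ABA-raised genes in every bin from 1 to 100 bases and below them from 101 to 150 bases.

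**Figure D5:**
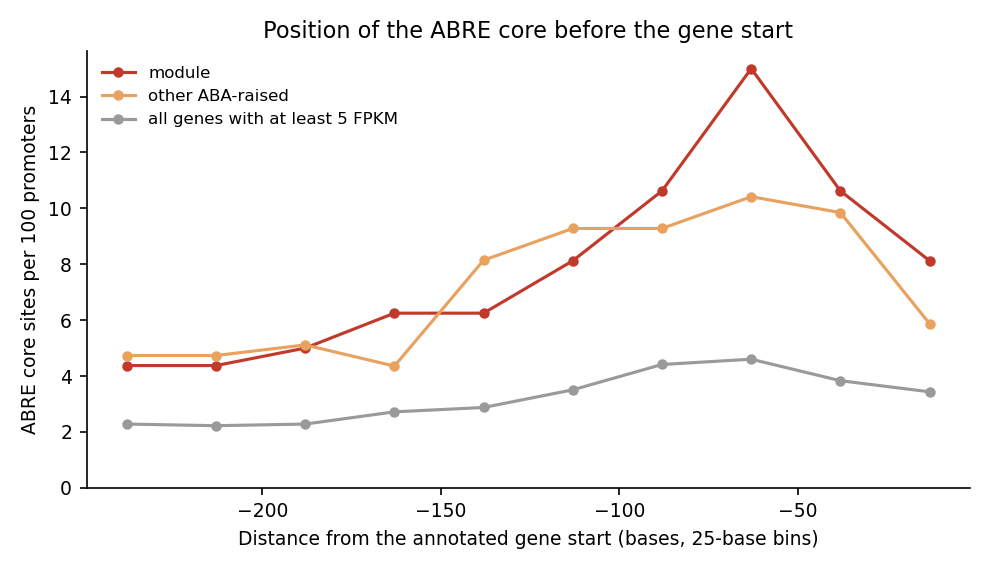
Number of ABRE core (ACGTG) sites per 100 promoters in bins of 25 bases before the annotated gene start, for the module, the other ABA-raised genes and all genes with at least 5 FPKM. All 3 lines peak 51 to 75 bases before the start, at 15, 10.4 and 4.602 sites per 100 promoters.

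Gene structure was close to that of other ABA-raised genes. Of the 168 members, 161 were protein-coding, 2 were annotated as ncRNA, 1 as lncRNA, 1 as a microRNA and 1 as a transcribed pseudogene. The other 2 were the chloroplast identifiers, which lie outside the nuclear chromosomes read here. The protein-coding members had a median of 3 exons, 1478 exon bases and 309 residues, beside 3 exons, 1392.5 exon bases and 304.5 residues in the other ABA-raised genes and 5 exons, 1653 exon bases and 368 residues in genes with at least 5 FPKM. Genes with a single exon were 21.1% of the module, 27.8% of the other ABA-raised and 14.5% of genes with at least 5 FPKM.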

How the data were processed

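RNA libraries of 4 groups were made from root tips and sequenced on an Illumina platform. Per the submitters' processing notes, TopHat and Cufflinks were used with TAIR10; no source used here gives versions, settings or the strand of counting. The authors deposited 3 tables with 1 FPKM value per group for 33557 genes, 32810 of them named in RefSeq TAIR10.1. The unit was read as FPKM because Cufflinks is named. The authors deposited a ratio (fold), a p-value and a q-value per gene, and the test behind them is not named. Genes with a p-value below 1 count as tested. Depth is unknown, and no error per library can be given.

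Ratios were computed with a pseudocount of 0.1 FPKM, which understates changes of low genes. The members, gene lists, roles and shown promoters were chosen with earlier results of these data known. No result is reported with a test of its own. Named genes are the members with the largest ABA ratios or levels, list members, members nearest the thresholds and those flattest or past q 0.05 in the mutants, plus ABI5, BIN2 and BZR1; AGL16, KIN2, further members and list genes outside the module were named after their values were seen. Windows of 250 bases before each gene start came from the RefSeq genome, where 160 of 161 protein-coding members had only unambiguous bases. The rule, adjustment and motif search were tested on simulated data. Python 3.11.15, numpy 2.4.6, pandas 2.3.3 and matplotlib 3.10.9 were used.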

Additional observations from a re-analysis of the deposited data

How the results depend on the processing

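No paired analysis was possible because the tables hold 1 value per group, and for the same reason no library could be left out. The 168 members became 348 with an ABA ratio of at least 2 and 106 with one of at least 4, 65 with a narrower band of 4/5 to 5/4 and 340 with a band of 2-fold, and 111 with the authors' q added to the rule. Of these, the 65, the 106 and the 111 were all among the 168. Pseudocounts of 0.01 and 1 FPKM gave 154 and 221 members, of which 154 and 153 were among the 168. Centring gave 166 members, 164 of them among the 168. The count past q 0.05 in a mutant table, 45, was 71 with a pseudocount of 1 FPKM, 126 and 23 with ABA ratios of 2 and 4, 178 with a 2-fold band, and 0 with the narrower band or with q in the rule. At q under 0.01 it was 14 in the bin2-1 table (34 at 0.05) and 6 in the bzr1-D table (17 at 0.05). The share past q 0.05 in the ABA table, 92.9%, was 85.8% with a 1 FPKM filter, 87.7% with the narrower band, and 100% with q in the rule or with at least 1 FPKM in Col-ABA; the setting with at least 1 FPKM in Col-ABA was chosen after seeing the data. The ACGTG share of 47.5% (95% Wilson interval 39.9% to 55.2%) was 56.1% with an ABA ratio of 4 and 32.5% in a window of 100 bases. The median log2 ABA ratio of 2.41 was 1.54 and 3.02 with ratios of 2 and 4, and 2.12 with at least 1 FPKM in Col-ABA. The other 46 of 68 values kept within 1.5 times for counts or within the 95% interval. These intervals treat the members, a set fixed by the rule, as independent draws, and the settings share genes with the 168. They serve only as a tolerance, and values within them are no evidence of robustness. Depth is unknown, so genes near 0 FPKM carry the least certain ratios.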
